A study of Mus musculus with 25 samples.

Results

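The 6 genes examined here encode the part of the IL-2 receptor pathway that lies below the alpha chain: the receptor chains Il2rb and Il2rg, the kinases Jak1 and Jak3, and the transcription factors Stat5a and Stat5b. They were 6 of the 21900 protein-coding genes annotated by RefSeq on GRCm38.p6 (mm10), and each was represented by its annotated span extended by 5 kb on both sides, its window. In the 6 libraries, 701 of the 121571 listed pairs of 1 kb bins had an anchor in 1 of these windows, and 177 of these were among the 28033 pairs listed in all 6 libraries (shared pairs). Il2rb had 92 shared pairs, Il2rg 30, Jak1 18, Stat5a 32 and Stat5b 37, while Jak3 had none. The windows of Stat5a and Stat5b overlap, and the 32 shared pairs of Stat5a are all counted for Stat5b too.

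The cells were CD8+ T cells from the spleens of C57BL/6J mice, assayed by HiChIP for H3K27ac, a histone mark of active promoters and enhancers. In HiChIP, chromatin segments that touch in the nucleus are ligated, pulled down with an antibody and sequenced as read pairs, and the read pairs joining 2 bins are their contacts. There were 3 genotypes: a strain with a deletion named Intron, a strain with a deletion named Upstream, and wild type (WT). The series' title concerns super-enhancer elements of CD25, the protein of Il2ra, so the deletions are read here as lying in an Il2ra intron and upstream of Il2ra. The sources used here do not give their coordinates. Cells of every genotype were stimulated for 2 days, by the labels with IL-2 or with antibodies to CD3 and CD28, and rested for 4 h. IL-2 was then added or left out (control). With 1 library for each combination of genotype and treatment, there were 3 IL-2 libraries, 3 control libraries and 2 libraries per genotype. The dose and duration of IL-2 and the animals behind each library are not given for these samples. No genotype and treatment had a second library. The p-values below therefore set each difference against a spread taken from departures from a model in which genotype and treatment add up. That model left 2 residual degrees of freedom, and the spread behind the p-values may be technical. The spread also holds any difference between genotypes in the IL-2 response. A comparison that did not pass, also one of the upstream deletion with WT, may therefore owe this to such differences.

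IL-2 binds a receptor made of an alpha chain (Il2ra), which raises affinity, and the signalling chains beta (Il2rb) and gamma (Il2rg). Jak1 sits on the beta chain and Jak3 on the gamma chain. After binding, these kinases phosphorylate the receptor and Stat5a and Stat5b, which form dimers, enter the nucleus and bind DNA at regulatory elements of target genes. In activated CD8+ T cells this pathway supports proliferation and effector differentiation, and Il2ra and Cish are known Stat5 targets.

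The libraries listed 38879 to 94922 pairs with 1314137 to 3596995 contacts, with a median of 28 to 30 contacts per pair and none below 20. The intron deletion control library was the shallowest and the WT IL-2 library the deepest. In the window of Il2ra, the intron deletion had 9 listed bins with IL-2 and 8 in control, against 31 and 27 for the upstream deletion and 34 and 30 for WT. Of its 35 bins, 19 were listed in both WT libraries and in neither intron deletion library. Of 12 markers of T cells, Cd8a and Cd8b1 among them, 11 had shared pairs. The counts were 1 of 4 for CD4 and regulatory T cells, 1 of 5 for NK cells and 1 of 6 for B cells. They were 2 of 7 for myeloid cells and 0 of 4 for erythroid cells. Most of the 12, such as the CD3 chains, mark T cells in general, so the count does not tell CD8 from CD4 T cells. In such bulk libraries a change in the share of cells that carry a mark and a change in the mark per cell cannot be told apart.

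Promoter sequences (250 bases before to 50 bases after an annotated start, RefSeq, GRCm38.p6) were found for 5 of the 6 genes, 7 in all. Those shown lie in bins that anchor shared pairs: Il2rg (chrX:101268206-101268505, minus strand), Jak1 (chr4:101265174-101265473, minus strand), Stat5a (chr11:100860234-100860533, plus strand) and Stat5b (chr11:100850532-100850831, minus strand). They are printed 5′ to 3′ on the gene's strand, and capitals mark the motif CCGGAA or its reverse complement, a core recognised by Ets family factors.
Il2rg: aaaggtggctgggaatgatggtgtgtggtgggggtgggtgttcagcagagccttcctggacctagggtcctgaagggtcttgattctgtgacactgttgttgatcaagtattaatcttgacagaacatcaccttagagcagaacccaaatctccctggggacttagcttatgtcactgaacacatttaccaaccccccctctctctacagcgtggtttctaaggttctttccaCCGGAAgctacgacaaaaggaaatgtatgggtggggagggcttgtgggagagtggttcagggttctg
Jak1: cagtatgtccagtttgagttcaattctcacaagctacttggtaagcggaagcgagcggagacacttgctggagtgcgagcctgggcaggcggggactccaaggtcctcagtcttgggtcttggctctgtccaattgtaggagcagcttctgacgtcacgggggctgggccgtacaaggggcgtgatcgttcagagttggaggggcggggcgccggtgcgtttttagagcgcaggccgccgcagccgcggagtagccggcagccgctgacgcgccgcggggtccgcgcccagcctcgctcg
Stat5a: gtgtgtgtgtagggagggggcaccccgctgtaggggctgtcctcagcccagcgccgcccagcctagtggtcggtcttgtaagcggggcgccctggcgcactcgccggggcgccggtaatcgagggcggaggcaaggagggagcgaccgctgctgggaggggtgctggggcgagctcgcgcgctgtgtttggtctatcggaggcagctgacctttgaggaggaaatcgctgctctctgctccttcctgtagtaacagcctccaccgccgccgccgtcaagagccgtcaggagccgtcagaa
Stat5b: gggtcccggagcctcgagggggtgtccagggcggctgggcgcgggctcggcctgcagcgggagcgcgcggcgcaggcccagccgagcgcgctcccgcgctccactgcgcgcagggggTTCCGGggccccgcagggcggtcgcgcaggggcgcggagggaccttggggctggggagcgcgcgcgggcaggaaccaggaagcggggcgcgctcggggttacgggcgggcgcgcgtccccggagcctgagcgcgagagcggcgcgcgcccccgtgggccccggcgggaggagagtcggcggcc

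The motif bound by Stat5 dimers, TTCNNNGAA, searched on both strands, was found in none of the 7 promoters, and 8.3% of all 32851 promoters of this length hold it. CCGGAA, searched on both strands, was found once in the Il2rg promoter and once in the first Stat5b promoter, and 14.9% of all promoters hold it. The promoters differed in base composition: GC content was 82.7% in the first Stat5b promoter (percentile 99.6 of all promoters), 67.7% in the second Stat5a promoter, 64.7% in Jak1 and 50.3% in Il2rg. A motif match describes these letters only. The printed Stat5b promoter falls in a bin with 12 shared pairs, the Stat5a promoter in a bin with 9, the Il2rg promoter in a bin with 7 and the Jak1 promoter in a bin with 6.

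Among the receptor chains, Il2rb was the member whose contacts moved with IL-2. Il2rb encodes the beta chain, which IL-2 and IL-15 receptors share, and spans chr15:78479256-78511621. The contacts of its shared pairs, summed and scaled to equal library size by TMM over all shared pairs, were 4839.8, 6691 and 6526 in the IL-2 libraries of the intron deletion, the upstream deletion and WT, against 4237, 5058 and 5374 in their control libraries. Within each genotype the IL-2 library was higher, but the treatments overlapped, since the intron deletion IL-2 library lay below the upstream deletion and WT controls. The rise with IL-2 was 0.29 ± 0.05 on the log2 scale (SE, edgeR adjusted p = 0.0170 over 3522 gene windows), and 2.73% of all windows rose and 1.68% fell. IL-2 over control was 1.14 in the intron deletion (95% counting interval 1.09 to 1.19), 1.32 in the upstream deletion (1.27 to 1.37) and 1.21 in WT (1.17 to 1.26). The call was lost without either upstream deletion library (0.24, adjusted p = 0.241 without IL-2 and 0.237 without control) and without either WT library (0.30, adjusted p = 0.0830 without IL-2 and 0.0839 without control).

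In the intron deletion the contacts of Il2rb fell by 0.39 ± 0.06 on the log2 scale against WT (SE, edgeR adjusted p = 0.00144), where 11.5% of all windows fell and 8.21% rose. The ratio of intron deletion to WT was 0.742 in the IL-2 libraries (0.716 to 0.768) and 0.788 in the control libraries (0.755 to 0.823). Both intron deletion libraries lay below all 4 libraries of the other genotypes, but the share of all windows that separate in this way was not counted. The call of a fall held without any 1 library. In the upstream deletion the log2 difference from WT was -0.02 ± 0.06 (SE, edgeR adjusted p = 0.893). The upstream deletion IL-2 library had 1.03 times the contacts of the WT IL-2 library, with a counting interval of 0.992 to 1.06 that includes 1. The upstream deletion control library had 0.941 times those of the WT control library, with an interval of 0.905 to 0.978 that lies below 1.

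**Figure D1:**
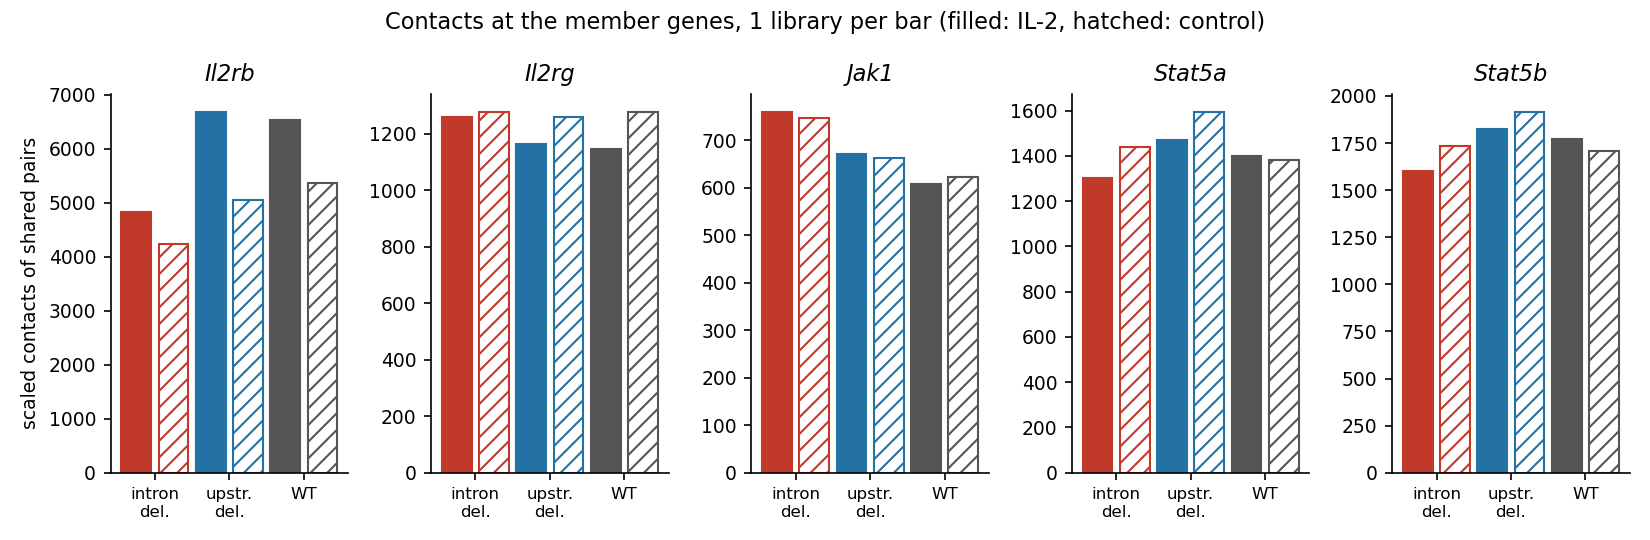
Scaled contacts of shared pairs (vertical axis, contacts after library scaling, each panel with its own scale) at 5 member genes, 1 bar per library, with IL-2 left of control in each genotype. Il2rb is higher with IL-2 in each genotype and lowest in the intron deletion, while the 2 intron deletion libraries of Jak1 (761 and 748) stand above the other 4.

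H3K27ac coverage, the reads of the anchor bins themselves, was also higher with IL-2 at Il2rb in each genotype. Over the 31 bins listed in all 6 libraries, scaled coverage was 40145, 57635 and 53932 reads in the IL-2 libraries of the intron deletion, the upstream deletion and WT, against 36933, 43617 and 43949 reads in their control libraries. IL-2 over control was 1.09 in the intron deletion (1.07 to 1.10), 1.32 in the upstream deletion (1.30 to 1.34) and 1.23 in WT (1.21 to 1.24). The IL-2 difference was 0.27 ± 0.06 on the log2 scale (SE, edgeR adjusted p = 0.0797). With edgeR no window of 4371 passed in coverage for IL-2 (0.0%), although 1768 had an unadjusted p under 0.05. DESeq2 called 833 windows, Il2rb among them (0.27, adjusted p = 0.00158). Without either intron deletion library the edgeR value was 0.35, past the threshold. Both omissions leave the IL-2 difference to the same libraries of the other genotypes, so they are the same check.

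Coverage of Il2rb fell by 0.34 ± 0.07 in the intron deletion (SE, edgeR adjusted p = 0.0190), where 27.8% of all windows fell and 15.7% rose, so a change in coverage was common there. This call was lost without either WT library (adjusted p = 0.175 without IL-2 and 0.139 without control). In the upstream deletion the difference was 0.04 ± 0.07 (adjusted p = 0.724), and no window passed in that comparison with edgeR (0.0%, 1155 at an unadjusted p under 0.05, 174 by DESeq2). The test for a difference in the IL-2 response itself passed. The log2 response of the intron deletion was 0.23 below that of the other 2 genotypes (SE 0.05, edgeR adjusted p = 0.000247). This test has 1 residual degree of freedom, and 28.7% of all windows passed it. In contacts the same difference was -0.15 ± 0.06 (adjusted p = 0.160), with 5.48% of all windows past the threshold.

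**Figure D2:**
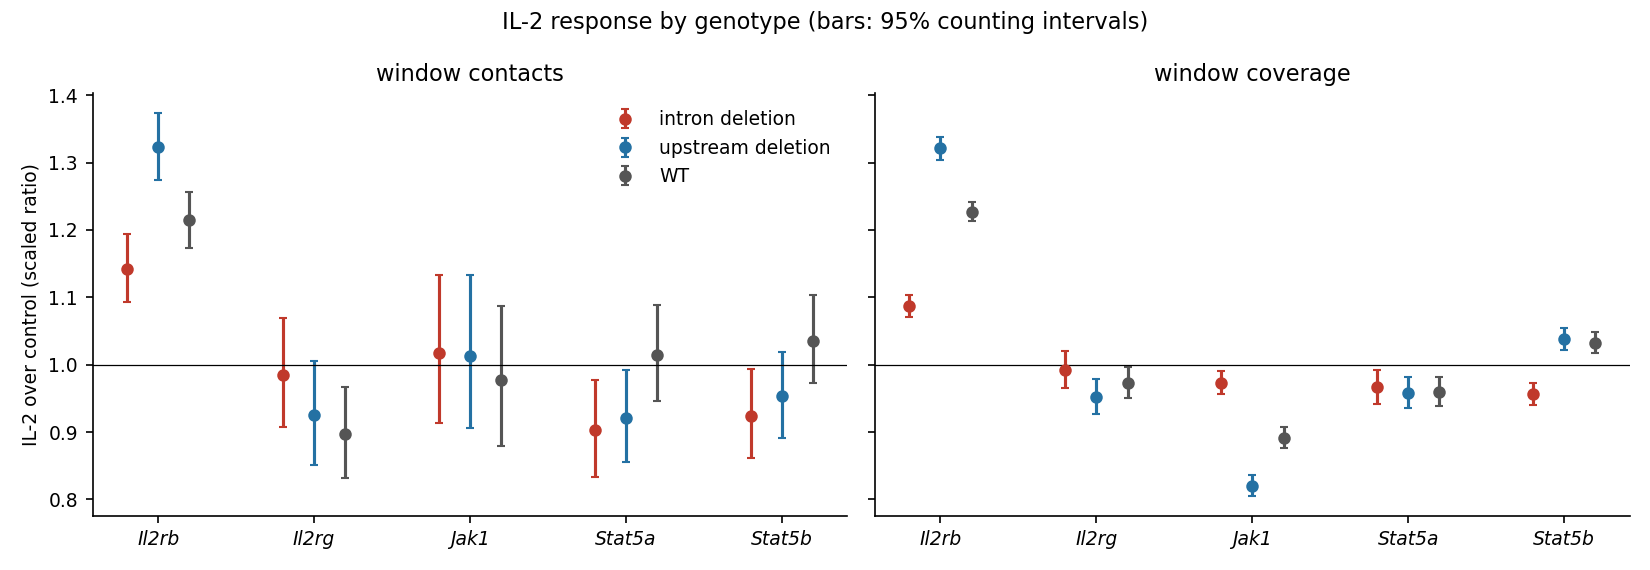
Ratio of IL-2 to control (vertical axis, scaled ratio, 1 means no difference) for 5 member genes in contacts (left) and coverage (right), with intron deletion, upstream deletion and WT from left to right; bars are 95% counting intervals. At Il2rb the ratio in coverage is 1.09 in the intron deletion, 1.32 in the upstream deletion and 1.23 in WT.

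The single pairs of Il2rb showed where in the locus these contacts lay. With IL-2, 10 of its 92 shared pairs rose and none fell, where 2.56% of all shared pairs rose and 0.731% fell, and 87 of the 92 had a log2 change above 0 (median 0.31). In the intron deletion 22 of the 92 fell and none rose, where 5.03% of all shared pairs fell and 6.27% rose, and 7 of the 92 were above 0 (median -0.42). In the upstream deletion none of the 177 shared pairs of the members passed in edgeR (8 at an unadjusted p under 0.05), nor in DESeq2, and 0.0785% of all shared pairs did. Pairs that share a bin share reads, so these counts are not of independent observations. Without 1 library the number of members' pairs that changed with IL-2 was 21 (either intron deletion library left out), 0 (either upstream deletion library) or 1 (either WT library), and DESeq2 called 0. For the intron deletion, 23 pairs of all members passed, against 3 without its IL-2 library, 29 without its control library, 20 without either upstream deletion library, 1 without the WT IL-2 library, 7 without the WT control library, and 0 by DESeq2.

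The most connected bin of Il2rb was chr15:78494001-78495000, inside the gene, with 34 shared pairs, and the bin before it had 17. Other strong anchors were the bin at the high-coordinate edge of the gene, chr15:78511001-78512000, with 20 shared pairs and the bin before that with 17. The strongest pair joined these places, chr15:78494001-78495000 with chr15:78511001-78512000, 17 kb apart, with 187, 191 and 234 contacts in the IL-2 libraries of the intron deletion, the upstream deletion and WT, against 102, 139 and 192 in their control libraries. Its log2 difference with IL-2 was 0.27 (adjusted p = 0.216). Of the pairs that rose with IL-2, the one with the smallest p joined chr15:78503001-78504000 and chr15:78511001-78512000, with 95, 107 and 96 contacts in the IL-2 libraries and 44, 47 and 63 in the control libraries, in the same genotype order. After scaling, the 3 IL-2 libraries held 86.2, 111 and 78.1 contacts and the 3 control libraries 56.4, 50.8 and 59.4. The log2 rise was 0.71 ± 0.16 (SE, edgeR adjusted p = 0.00110). The pair was picked by its p, so the separation of the treatments is no further support. A pair 7 kb apart, chr15:78493001-78494000 with chr15:78500001-78501000, had 42, 72 and 76 contacts with IL-2 against 21, 31 and 39 in control, a log2 rise of 0.84 ± 0.20 (adjusted p = 0.00266).

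Pairs that fell in the intron deletion were mostly those of the connected bins. Of the 22, 19 had an anchor in chr15:78494001-78495000 or the bin before it, out of 51 shared pairs that did (median log2 -0.50, none above 0). Of the 36 shared pairs with both anchors above these bins, 3 fell and 7 had values above 0 (median -0.22). Another 5 shared pairs had 1 anchor on each side and none in these bins. Their median was -0.54, as low as that of the connected bins, with 0 above 0 and 0 past the threshold. Lower values were thus not confined to pairs of the connected bins. The fall with the smallest p was at chr15:78481001-78482000 with chr15:78493001-78494000, 12 kb apart, with 39 and 32 contacts in the IL-2 and control libraries of the intron deletion, 91 and 46 in those of the upstream deletion, and 105 and 62 in those of WT. That was a log2 difference of -0.96 ± 0.22 (SE, edgeR adjusted p = 0.000460). After scaling, the intron deletion libraries held 35.4 and 41.0 contacts, and the lowest of the other 4 held 49.7. This pair too was picked by its p, so that gap is no further support. Of the 10 pairs that rose with IL-2 and the 22 that fell in the intron deletion, 2 were in both lists.

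Some partners lay outside the Il2rb window. With C1qtnf6, a gene of the C1q and TNF related protein family, 13 shared pairs were 13 to 38 kb long, and 6 of them fell in the intron deletion (median log2 -0.62) while none changed with IL-2. With Tmprss6, a membrane serine protease gene best known from iron regulation in the liver, 6 shared pairs were 44 to 63 kb long, of which 2 rose with IL-2 (median 0.50) and none passed in the intron deletion (median -0.56). The larger of these, chr15:78449001-78450000 with chr15:78494001-78495000, had 60, 81 and 100 contacts with IL-2 against 33, 41 and 49 in control, and rose by 0.73 ± 0.17 (SE, edgeR adjusted p = 0.00244).

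**Figure D3:**
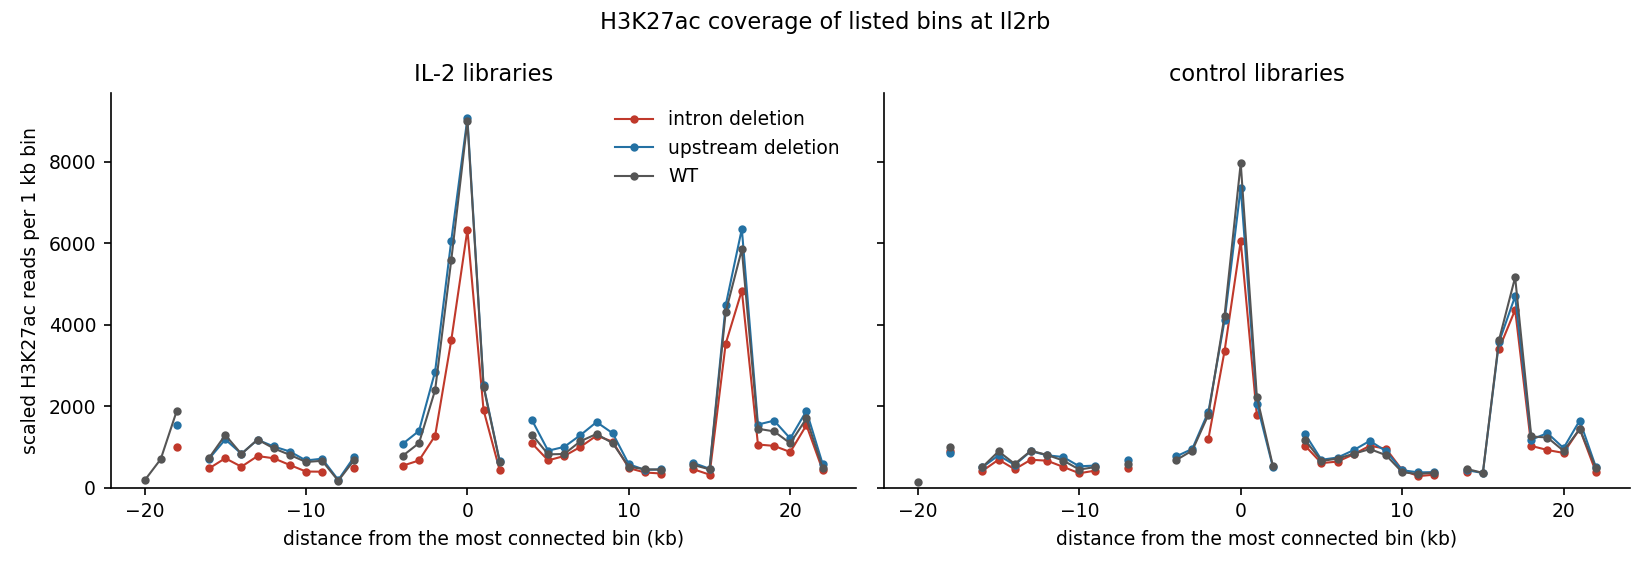
Scaled H3K27ac reads per 1 kb bin (vertical axis) by distance from the most connected bin of Il2rb (horizontal axis, kb), IL-2 libraries left and control libraries right, 1 line per genotype; bins not listed in a library are left out of its line. With IL-2, the most connected bin holds 6330 reads in the intron deletion, 9066 in the upstream deletion and 8988 in WT, and the bin 9 kb beyond it holds 1132, 1339 and 1094 reads in the same order. Over all 18 shared bins above the most connected bin, intron deletion over WT with IL-2 is 0.838.

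The coverage by bin, whose parts were drawn after the values were seen and carry no test, differed along the gene. Over the 12 shared bins below the most connected bin, intron deletion over WT was 0.620 in the IL-2 libraries and 0.785 in the control libraries. Over the 18 shared bins above it, the ratios were 0.838 and 0.899. IL-2 over control below that bin was 1.08 in the intron deletion, 1.43 in the upstream deletion and 1.37 in WT. Above it, the ratios were 1.10, 1.29 and 1.18 in the same order.

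Il2rg, the gamma chain shared by the receptors of IL-2, IL-4, IL-7, IL-9, IL-15 and IL-21, spans chrX:101264385-101268255. Its scaled contacts were 1259.9, 1165 and 1146 in the IL-2 libraries of the intron deletion, the upstream deletion and WT, against 1279, 1259.5 and 1279 in their control libraries. In each genotype the IL-2 library was the lower, but the log2 difference of -0.10 ± 0.05 did not pass (SE, edgeR adjusted p = 0.290). It passed without either intron deletion library (-0.14, adjusted p = 0.0207 without IL-2 and 0.0210 without control). Against WT, Il2rg differed by 0.07 ± 0.06 in the intron deletion (adjusted p = 0.470) and by 0.00 ± 0.06 in the upstream deletion (adjusted p = 0.995). In coverage the IL-2 libraries held 11484, 11492 and 11366 reads and the control libraries 11569, 12066 and 11682, a difference of -0.04 ± 0.03 (adjusted p = 0.378). The 2 treatments did not overlap, but the share of all windows that separate in this way was not counted.

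None of the 30 shared pairs of Il2rg passed in any of the 3 comparisons. Of all shared pairs, 2.56% rose and 0.731% fell with IL-2, and 6.27% rose and 5.03% fell in the intron deletion. The most connected bin of Il2rg, chrX:101267001-101268000, lies in the gene next to the promoter printed above. The 2 strongest pairs of the locus were chrX:101268001-101269000, the promoter bin, with chrX:101273001-101274000, and chrX:101254001-101255000 at Foxo4 with chrX:101267001-101268000. The first had 97, 48 and 59 contacts in the IL-2 libraries and 61, 64 and 80 in the control libraries, and the second had 79, 71 and 72 against 56, 59 and 69. Partners outside the window were Foxo4, a forkhead transcription factor gene, with 15 shared pairs, and Med12, a Mediator kinase module gene, with 4.

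Of the kinases, Jak1 stood out in the intron deletion. Jak1, which also serves interferon, gp130 and other gamma chain receptors, spans chr4:101151974-101265282 and is read from its high coordinate down. Its scaled contacts were 761, 672 and 609 in the IL-2 libraries of the intron deletion, the upstream deletion and WT, against 748, 663 and 622 in their control libraries. Both intron deletion libraries were above all 4 others, though the share of all windows that separate in this way was not counted. IL-2 and control libraries hardly differed (0.00 ± 0.06, edgeR adjusted p = 0.978). Intron deletion over WT was 1.25 in the IL-2 libraries (1.13 to 1.38) and 1.20 in the control libraries (1.07 to 1.35), a rise of 0.29 ± 0.07 on the log2 scale (SE, edgeR adjusted p = 0.0114; 8.21% of all windows rose). The call was lost without the WT IL-2 library (0.27, adjusted p = 0.263), without the WT control library (0.32, adjusted p = 0.104) and with DESeq2 (0.29, adjusted p = 0.200). The upstream deletion differed from WT by 0.12 ± 0.07 (adjusted p = 0.456).

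Coverage at Jak1 was also higher in the intron deletion, but the 2 measures cover different parts of the gene. The far stretch described below holds 7 of the 16 shared bins but only 1 of the 18 shared pairs. At the start, intron deletion over WT in coverage was 1.14 with IL-2 and 1.13 in control. Over all 16 shared bins of Jak1, scaled coverage was 27197, 19328 and 18641 reads in the IL-2 libraries of the intron deletion, the upstream deletion and WT, against 27941.5, 23561 and 20906 in their control libraries. The rise in the intron deletion was 0.48 ± 0.07 (SE, edgeR adjusted p = 0.00552; 15.7% of all windows rose), and it was lost without either WT library (adjusted p = 0.0803 without IL-2 and 0.0713 without control). IL-2 over control was 0.973 in the intron deletion (0.956 to 0.991), 0.820 in the upstream deletion (0.804 to 0.837) and 0.892 in WT (0.876 to 0.908). The response of the intron deletion was 0.19 ± 0.06 above that of the other 2 genotypes (edgeR adjusted p = 0.00685), where 28.7% of all windows passed. The IL-2 difference over all genotypes was -0.16 ± 0.05 (adjusted p = 0.0919). Without either intron deletion library it was -0.23, past the threshold, and again both omissions are the same check.

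**Figure D4:**
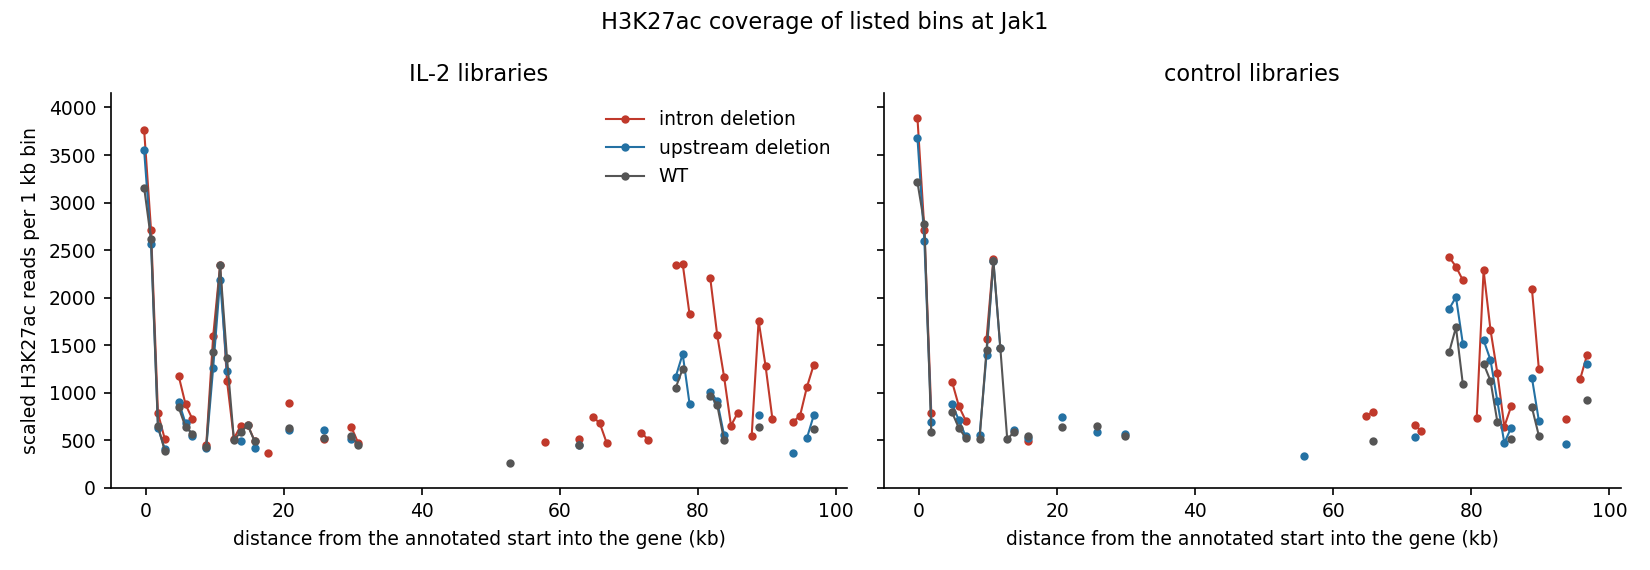
Scaled H3K27ac reads per 1 kb bin (vertical axis) by distance from the annotated start of Jak1 into the gene (horizontal axis, kb), IL-2 libraries left and control libraries right, 1 line per genotype; bins not listed in a library are left blank. Near the start the 3 genotypes lie close together, and from 52.3 to 97.3 kb into the gene the intron deletion is highest in the bins that all 3 genotypes list.

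The listed bins of Jak1 fell into 2 stretches, split at the widest gap between listed bins, 22000 bases. This split was made after the values were seen, so the stretches are described without a test. In the far stretch, 52.3 to 97.3 kb into the gene, 7 bins were listed in all 6 libraries. Their scaled coverage was 12736, 6591 and 5907 reads in the IL-2 libraries of the intron deletion, the upstream deletion and WT, against 13403, 10149 and 8008 in their control libraries. Intron deletion over WT was thus 2.16 with IL-2 (2.10 to 2.22) and 1.67 in control (1.63 to 1.72). IL-2 over control was 0.950 in the intron deletion, 0.649 in the upstream deletion and 0.738 in WT. In the stretch at the start, 9 shared bins held 14461, 12737 and 12735 reads with IL-2, against 14539, 13412 and 12899 in control, and intron deletion over WT was 1.14 with IL-2 and 1.13 in control.

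The far stretch also differed in how many pairs were listed, which depends on a library's depth as well. Pairs with both anchors in the far stretch numbered 65, 4 and 3 in the IL-2 libraries of the intron deletion, the upstream deletion and WT, against 38, 19 and 14 in their control libraries. Over the whole Jak1 window, 134, 50 and 66 pairs were listed in the IL-2 libraries, against 58, 64 and 56 in the control libraries. These counts are not scaled, and the intron deletion control library was the shallowest. As a share of a library's listed contacts, the window held 0.147%, 0.0655% and 0.0555% with IL-2, against 0.126%, 0.0892% and 0.0615% in control. By that share the intron deletion was highest in both treatments. In the stretch at the start, 32, 21 and 37 pairs were listed with IL-2, against 13, 23 and 27 in control. Of the 68 pairs listed within the far stretch in at least 1 library, 1 was listed in all 6.

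That pair, chr4:101183001-101184000 with chr4:101188001-101189000, was the only Jak1 pair of 18 to pass in any comparison. Of all shared pairs, 6.27% rose in the intron deletion, so 1 of 18 is near the share of all pairs. The Jak1 pair had 69 and 37 contacts in the IL-2 and control libraries of the intron deletion. It had 22 and 43 in those of the upstream deletion, and 27 and 35 in those of WT. It was 1.06 higher on the log2 scale in the intron deletion (edgeR adjusted p = 0.000488). After scaling, the intron deletion had 62.6 contacts with IL-2 and 47.5 in control, and the control value lay close to that of the upstream deletion control (46.5). At the other end of the gene, the promoter bin reached chr4:101292001-101293000, 27 kb upstream and in no annotated protein-coding gene. This was the strongest Jak1 pair, with 73, 74 and 67 contacts in the IL-2 libraries and 57, 56 and 57 in the control libraries, and it passed in no comparison.

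Some marker genes passed in the intron deletion. Of the 11 T cell markers measured, Cd8a rose by 0.52 ± 0.06 in contacts of the intron deletion against WT (edgeR adjusted p = 9.8e-05). Cd8b1 rose by 0.41 ± 0.06 (adjusted p = 0.000819), and Cd5 and Zap70 fell. Cd79a, the 1 of 6 B cell markers measured, rose by 0.35 ± 0.06 (adjusted p = 0.00212). In coverage of the intron deletion, Cd79a, Foxp3 and the myeloid marker Spi1 rose and Cd68 fell. Of the 11 T cell markers, 3 rose and 3 fell there, where 15.7% of all windows rose and 27.8% fell. No marker passed with IL-2 or in the upstream deletion. The part of cell composition in the values of Jak1 and Il2rb was not tested.

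Jak3, which is found mainly in blood cells and works with the gamma chain, spans chr8:71676383-71690577 and was too sparse to test. It had 2, 3 and 9 listed pairs in the IL-2 libraries of the intron deletion, the upstream deletion and WT, against 0, 0 and 7 in their control libraries. In all, 10 pairs were listed in at least 1 library and none in all 6. The bin of its start, chr8:71676001-71677000, was listed in 4 libraries, with scaled coverage of 1100, 1339 and 1409 reads in the IL-2 libraries, and 1406 in the WT control. The pair of this bin with chr8:71669001-71670000, inside Unc13a, had 27, 33 and 29 contacts in the IL-2 libraries and 24 in the WT control. An unlisted pair had too few contacts to enter the tables or missed another criterion of listing, so these gaps do not show that a contact was absent.

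Stat5a and Stat5b lie side by side on chromosome 11, at chr11:100859351-100885169 and chr11:100780731-100859004, and an edge of each span falls in the same bin. They encode closely related transcription factors that IL-2, IL-7 and IL-15 all activate. The scaled contacts of Stat5a were 1299.8, 1469.7 and 1399 in the IL-2 libraries of the intron deletion, the upstream deletion and WT, against 1441, 1595 and 1379.5 in their control libraries. The treatments overlapped and the log2 difference was -0.08 ± 0.05 (SE, edgeR adjusted p = 0.394). Those of Stat5b were 1602, 1827 and 1769 with IL-2, against 1733, 1917 and 1709 in control (-0.04 ± 0.05, adjusted p = 0.668). In the intron deletion the differences from WT were -0.02 ± 0.06 for Stat5a (adjusted p = 0.820) and -0.06 ± 0.06 for Stat5b (adjusted p = 0.512).

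In the upstream deletion both were somewhat higher than WT without passing, by 0.14 ± 0.06 for Stat5a (adjusted p = 0.327) and 0.11 ± 0.06 for Stat5b (adjusted p = 0.450). For Stat5a the value passed without either intron deletion library (0.14, adjusted p = 0.0251 without IL-2 and 0.0257 without control). Coverage gave 0.12 ± 0.04 for Stat5a (adjusted p = 0.128) and 0.07 ± 0.05 for Stat5b (adjusted p = 0.398). Coverage of Stat5a was 12438.5, 14225 and 13075 reads with IL-2 and 12869, 14846 and 13619 in control, and IL-2 over control was 0.967, 0.958 and 0.960 in the 3 genotypes. The spread of these ratios was small, and each counting interval lay below 1, but the IL-2 difference of -0.06 ± 0.03 did not pass (adjusted p = 0.218). Coverage of Stat5b was 29092, 32150.0 and 30569.8 reads with IL-2 and 30439.5, 30972.6 and 29609 in control in the same genotype order, so the IL-2 library was the lower only in the intron deletion. The response of the intron deletion was -0.12 ± 0.06 relative to the other 2 genotypes and did not pass (edgeR adjusted p = 0.112).

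None of the pairs of either Stat5 gene passed in any comparison. Of all shared pairs, 2.56% rose and 0.731% fell with IL-2, and 6.27% rose and 5.03% fell in the intron deletion. At the Stat5 genes, the pair with most contacts joined the Stat5b promoter bin chr11:100850001-100851000 to the bin where the 2 genes meet, chr11:100859001-100860000, 9 kb away. It had 93, 93 and 107 contacts in the IL-2 libraries of the intron deletion, the upstream deletion and WT, against 84, 105 and 100 in their control libraries. Of the 32 shared pairs of Stat5a, 26 ran to Stat5b outside the Stat5a window, over 5 to 16 kb. Another strong pair lay inside Stat5b, chr11:100845001-100846000 with the promoter bin, with 103, 91 and 133 contacts with IL-2 against 55, 86 and 85 in control (0.29 ± 0.14, adjusted p = 0.323).

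**Figure D5:**
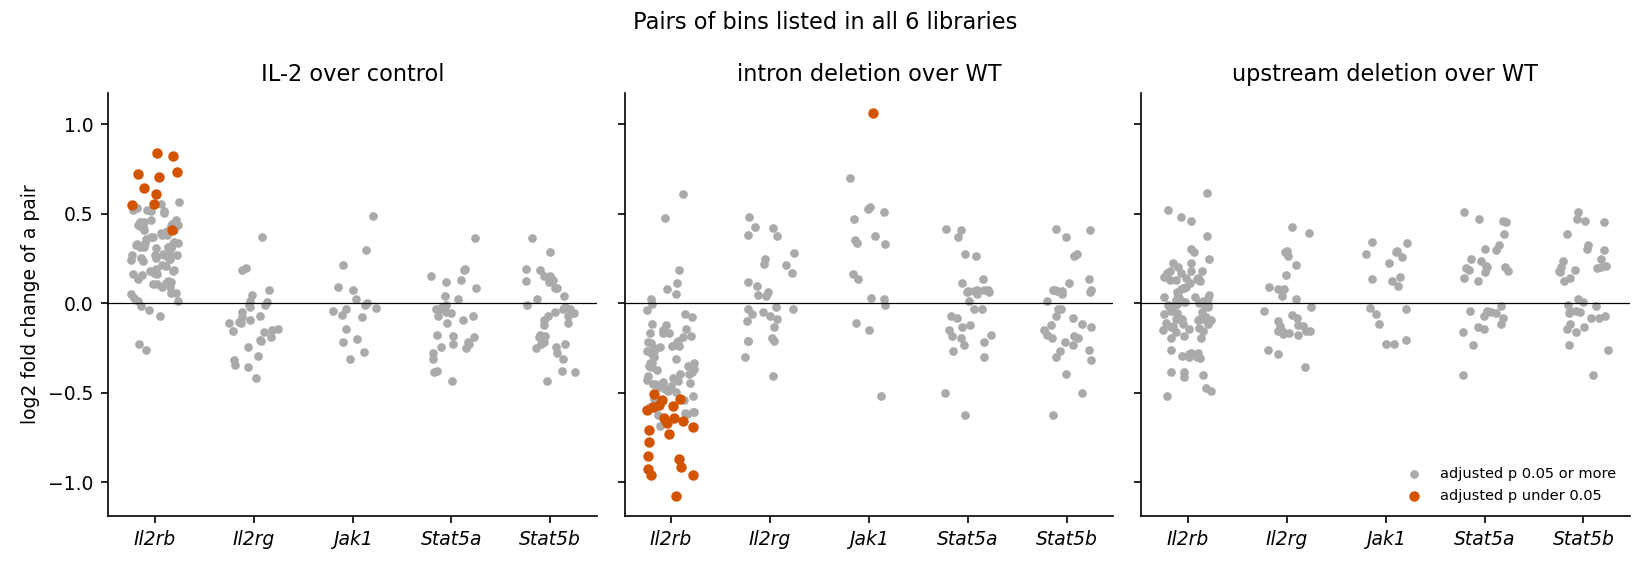
Log2 fold change (vertical axis) of each shared pair of bins, 1 point per pair, by gene, for IL-2 over control, intron deletion over WT and upstream deletion over WT; orange points have an adjusted p under 0.05. Il2rb holds the 10 pairs that rose with IL-2 and the 22 that fell in the intron deletion, Jak1 the 1 that rose there, and no point passes in the upstream deletion; pairs of Stat5a appear again under Stat5b.

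As a description of likeness over the 6 libraries, which share depth and treatment, Pearson correlations of log2 scaled contacts were taken with genes on other chromosomes. The pattern of Il2rb was nearest to those of Ier5 (r = 0.986), B3galt6 (0.983) and the window shared by Rab26 and Traf7 (0.983). Il2rg was nearest to Dpp4 (0.991), Il16 (0.986) and Ctsd (0.981), and Jak1 to Fam83f (0.996), Fgfr1 (0.993) and Arl4c (0.989). Stat5a was nearest to Dnajb2 (0.970), Fcho1 (0.968) and Tpm4 (0.968), and Stat5b to Dync1h1 (0.975), Ptger2 (0.960) and Dcaf15 (0.958). Several of these rest on few pairs, Fam83f and the Rab26 window on 1 each. Between members, Il2rb and Il2rg had r = -0.892 and Il2rb and Jak1 r = -0.699. Arl4c, with 19 shared pairs, had 1116, 774 and 587 scaled contacts in the IL-2 libraries of the intron deletion, the upstream deletion and WT, against 1031, 774.5 and 569.5 in their control libraries.

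Other genes of the pathway were taken from a list of 35, of which 25 had shared pairs. In contacts, 4 rose with IL-2 and 1 fell, with a median log2 change of 0.00, against 0.01 over all 3522 windows, of which 2.73% rose and 1.68% fell. The risers were Cish, a Stat5-induced inhibitor (0.53 ± 0.08, edgeR adjusted p = 0.0153), Il7r, the IL-7 receptor alpha chain (0.42 ± 0.09, adjusted p = 0.0278), Socs1, an inhibitor of Jak kinases (0.34 ± 0.05, adjusted p = 0.0153), and Il4ra, the IL-4 receptor alpha chain (0.26 ± 0.05, adjusted p = 0.0240). The gene that fell was Jak2 (-0.56 ± 0.14, adjusted p = 0.0436). In the intron deletion, where 8.21% of all windows rose and 11.5% fell, none of the 25 rose and 5 fell: Il2ra (-1.09 ± 0.11, adjusted p = 7.12e-05), Stat6 (-0.38), Il7r (-0.38), Cish (-0.35) and Il21r (-0.20). Il7r and Cish thus shared with Il2rb a rise with IL-2 and a lower level in the intron deletion, and Il2ra itself had an IL-2 difference of 0.28 ± 0.09 (adjusted p = 0.0943). None of the 25 passed in the upstream deletion, where 0.17% of all windows did. In coverage none passed with IL-2, while 1 rose (Lck) and 8 fell in the intron deletion, where 15.7% of all windows rose and 27.8% fell.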

How the data were processed

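The H3K27ac HiChIP tables deposited by the authors hold, per the file layout, whole-number counts of contacts for each pair of 1 kb bins and the read count (coverage) of each bin. Listed pairs had at least 20 contacts and lay at least 5 kb apart, as tested on the tables. Per the submitters' processing notes, CASAVA, Bowtie2 2.2.6 and HiC-Pro were used with mm10. The 19 ChIP-seq samples of the 25 in the series were not analysed here.

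Counts were summed per gene window over pairs, or bins, listed in all 6 libraries. A shared pair thus had to reach the minimum for listing in the shallowest library too, the intron deletion control. This kept 92 of 367 listed pairs at Il2rb and 18 of 165 at Jak1. Such a choice can favour pairs with high counts in that library. It can therefore lessen a fall in the intron deletion and that genotype's IL-2 response, and its effect was not tested. Loops, window contacts and window coverage were each tested over every feature with edgeR 4.0.16 in R 4.3.3 (quasi-likelihood test, TMM scaling, genotype plus treatment, Benjamini-Hochberg adjustment, threshold 0.05). A term for the IL-2 response of 1 genotype tested differences between responses. DESeq2 1.42.0 was an alternative, as were other scalings, filters, windows and the omission of each library. Ratios carry exact conditional binomial 95% intervals, which cover counting error only. In counts simulated from the mean counts and depths of these libraries, the IL-2 test recovered 9% of loops, 77.5% of window contacts and 100% of window coverages changed by 0.5 on the log2 scale. The simulation had no genotype differences and no departures from additivity. It gave all features 1 spread (dispersion), below those estimated from the data (0.00231 to 0.00264). Recovery in the real libraries can therefore be lower. Pairs were named as the strongest by mean contacts at each gene or those past the threshold. The members and lists were chosen with earlier results of these data known.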

Additional observations from a re-analysis of the deposited data

Results flagged for a closer look

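In H3K27ac coverage, the test for a different IL-2 response of the intron deletion passed at 2 of the 5 measured members. The same test passed in 28.7% of all windows, so passing was not particular to these members. At Il2rb the log2 response of the intron deletion was -0.23 relative to the upstream deletion and WT (SE 0.05, edgeR adjusted p = 0.000247), with IL-2 over control at 1.09 in the intron deletion, 1.32 in the upstream deletion and 1.23 in WT. At Jak1 it was 0.19 (SE 0.06, edgeR adjusted p = 0.00685), with ratios of 0.973, 0.820 and 0.892 in the same order. The test rests on 1 library for each genotype and treatment, and neither member passed it with bins listed in any library.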

How the results depend on the processing

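The number of members' loops called with IL-2 (10) was 0 with DESeq2 and 0 to 21 without 1 library. For loops in the intron deletion (23) it was 0 with DESeq2 and 1 to 29 without 1 library. For window contacts with IL-2 (1) it was 0 when pairs listed in any library were used and 0 to 2 without 1 library. In the intron deletion (2) it was 1 with DESeq2, 0 with pairs listed in any library and 1 to 2 without 1 library. In the upstream deletion (0) it was 0 to 1 without 1 library. For coverage, IL-2 (0) gave 1 with DESeq2 and 0 to 2 without 1 library, the intron deletion (2) gave 0 with bins listed in any library and 0 to 2 without 1 library, and the upstream deletion (0) gave 0 to 2 without 1 library. The coverage response of the intron deletion (2) gave 0 with bins listed in any library. With any-library pairs, Il2rb was 0.69 with IL-2 (edgeR adjusted p = 0.158) and -0.94 in the intron deletion (0.0676), and Jak1 0.84 (0.220). Shared pairs had to be listed in the shallowest library and any-library pairs did not, so the sets differ in how they were selected. The cause of these changes was not tested.

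The signs that changed were of differences that passed no threshold with all 6 libraries; of these, Il2rg with IL-2 and Stat5a in the upstream deletion, both in contacts, passed without either intron deletion library. With any-library contacts these were Il2rg 0.053, Stat5a 0.14 and Stat5b 0.18 with IL-2, Il2rg -0.17 in the intron deletion, and Il2rg -0.18, Stat5a -0.074 and Stat5b -0.16 in the upstream deletion. The intron deletion response was then Il2rb 0.087, Stat5a 0.13 and Stat5b 0.11, and the upstream deletion response Jak1 -0.82. With any-library coverage, Il2rg was -0.020 in the intron deletion and Stat5b -0.022 in the upstream deletion. DESeq2 size factors gave Jak1 -0.0013 with IL-2 in contacts and Stat5b 0.0083 in the intron deletion in coverage. Bins with a gene end gave coverage of -0.070 at Stat5b with IL-2 and -0.028 at Il2rb in the upstream deletion. Spans with no extension gave coverage of 0.0089 at Stat5b in the intron deletion, and Stat5a responses of -0.0071 (intron deletion) and 0.0050 (upstream deletion). Without 1 library, contacts ranged from -0.0082 to 0.021 (Jak1, IL-2), -0.099 to 0.055 (Stat5a, intron deletion), -0.13 to 0.0092 (Stat5b, intron deletion), -0.11 to 0.057 (Il2rb, upstream deletion) and -0.044 to 0.046 (Il2rg, upstream deletion). Coverage ranged from -0.0095 to 0.050 (Stat5b, IL-2), -0.022 to 0.022 (Il2rg, intron deletion), -0.073 to 0.042 (Stat5b, intron deletion) and -0.055 to 0.14 (Il2rb, upstream deletion). Of 420 single-gene values under alternatives, 350 kept direction and side of the threshold, 18 lost it, 14 gained it and 38 changed sign.

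Omitting 1 library leaves a genotype with 1 library, assumed to vary like the others. The genotype term then fits that library alone, so for IL-2 the omission of either library of a genotype is nearly the same fit. The response tests then have no residual degrees of freedom and were not run without a library, with DESeq2's own test or with bins of a gene end. The genotype term already sets each IL-2 library beside the control of its genotype. No paired analysis was possible because the labels give these libraries no replicate numbers, beyond that term. At about 30 contacts a pair, depth limits single pairs more than summed windows, and Jak3 was too sparse to test.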
